A study of Mus musculus with 8 samples.

Results

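The PGC-1 coactivators and the nuclear genes that carry out mitochondrial biogenesis were followed in AML12 cells exposed to irisin. All array probes whose accession belongs to Ppargc1a, Ppargc1b, Pprc1, Nrf1, Gabpa, Tfam, Tfb1m, Tfb2m, Polg or Ucp2 were taken, which gave 17 of 39429 probes for 10 of 21612 genes. AML12 is a hepatocyte line from the liver of a mouse carrying a human TGF-α transgene, and irisin is a secreted peptide cut from the membrane protein Fndc5. The control group was 4 samples of AML12 cells kept 24 h in serum-containing DMEM F-12 medium without irisin, and the irisin group was 4 samples kept 24 h in the same medium with 0.5 µg/ml irisin. Both groups were the same cell line with no change in genotype, and each RNA was hybridized to 1 one-color Agilent array. The labels do not say whether the 4 samples of a group were separate cultures, so the p-values measure the spread between these samples, which may be technical.

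PGC-1α (Ppargc1a), PGC-1β (Ppargc1b) and PRC (Pprc1) are coactivators that bind transcription factors instead of DNA. With NRF1 and the GABP complex they raise the nuclear genes for mitochondrial proteins, among them Tfam, which packs and transcribes mitochondrial DNA. In liver, PGC-1α also takes part in the fasting program, and irisin was first described as a muscle peptide released downstream of PGC-1α and linked to thermogenic genes in fat.

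The processed signal of each array was scaled to its own 75th percentile, which lay at 472 ± 70.1 units on the control arrays and 783 ± 71.6 units on the irisin arrays (SD, n = 4 each). The share of probes well above background was 59.5% to 64.1% per array, and no spot was saturated. All control arrays were on 1 slide and all irisin arrays on another, so slide and treatment cannot be told apart. The 11 hepatocyte markers, Alb, Ttr and Apoa1 among them, were well above background on all 8 arrays, and none was called changed. Short of 1.5-fold, Krt18 (-0.47, adjusted p 0.00522 in limma) and Trf (-0.39, adjusted p 0.0204) were lower with irisin by their brightest probes. The summed signal of the 11 markers relative to the 75th percentile ranged from 472 to 521 on control arrays and from 382 to 452 on irisin arrays. Of markers of other liver cells, 6 of 8 stellate cell or fibroblast genes and 3 of 6 endothelial genes were above background on no array, while all 7 macrophage and all 6 cholangiocyte genes were above it on at least 1 array. The summed stellate or fibroblast signal was 0.087 to 0.134 on control arrays against 0.0616 to 0.0805 on irisin arrays. In the same order, the endothelial signal was 0.712 to 0.794 against 0.418 to 0.592. The macrophage signal was 12.9 to 15.0 against 11.6 to 13.4, and the cholangiocyte signal 56.0 to 62.3 against 58.6 to 61.6. These sums add linear signals, so the endothelial one was mostly Kdr and the macrophage one mostly Cd14. Kdr was at -0.56 (adjusted p 0.00441 in limma), short of 1.5-fold, and its other probe was above background on no array. Cd14 was at -0.12 (adjusted p 0.392). Of the stellate or fibroblast genes only Col1a1, at 0.006, and Col1a2 were tested. By their brightest probes, Col1a2, Marco and Pecam1 were the markers called lower with irisin, as were 10.2% of all tested genes. Their changes were -1.08, -1.21 and -0.61, while tested probes in the same decile of mean signal had median changes of -0.15, -0.51 and -0.33. The macrophage marker Cd68 was at 0.006. Csf1r was called lower by a dimmer probe (-0.74, adjusted p 0.000179 in limma), while its brightest was at -0.49 (adjusted p 0.00139). The part of such markers in the values below was not tested, and in bulk RNA fewer cells of a type and less RNA per cell cannot be told apart.

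No gene of the program changed by the rule used here, a change of at least 1.5-fold with an adjusted p under 0.05 in limma. The rule called 0 of the 17 member probes, against 12.4% of all 24091 tested probes, of which 0.714% were higher and 11.7% lower with irisin. At an unadjusted p under 0.05 there were 4 member probes, 2 higher and 2 lower with irisin, against 34.3% of all tested probes, and the methods' test of each probe by analysis of variance also called 0. All 17 probes passed the filter on dim probes, which kept a probe if every array of the control or of the irisin group had it well above background. For 13 of the 17 probes, and for 8 of the 10 genes by their brightest probe, the 95% interval of the change lay within 1.5-fold in either direction, against 69.8% of all tested probes and 75.2% of tested genes. The median change of the 10 genes was 0.029 on the log2 scale, with a range from -0.39 to 0.15, and that of all 14310 tested genes was -0.064. All 3 coactivators had changes below zero, with a median of -0.31, whereas 5 of the 6 nuclear and mitochondrial factors lay above zero, but with spike-in or no scaling all 10 genes lay above zero, and Ppargc1a did so with quantile normalization, cyclic loess and normexp too. Values are log2 signals with the array's own 75th percentile at zero, and levels were not compared between probes.

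**Figure D1:**
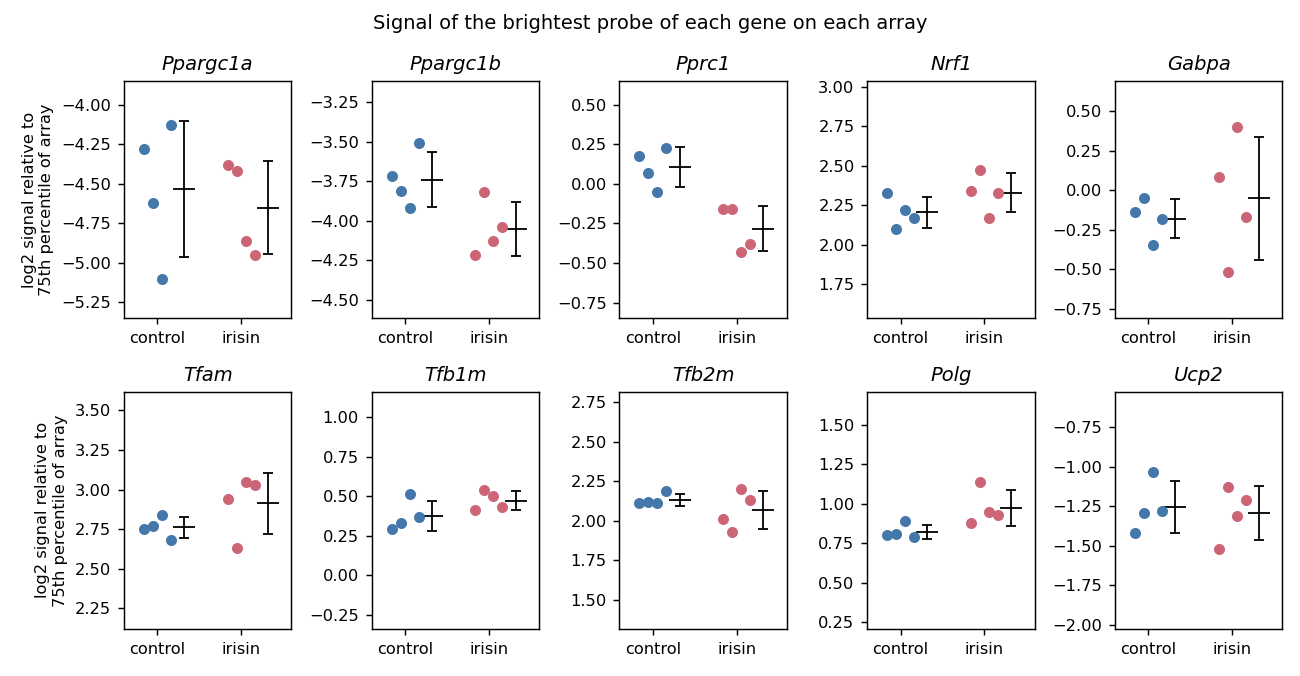
Log2 signal with the array's 75th percentile at zero (vertical axis, a span of 1.5 in every panel) for the brightest probe of each gene on 4 control and 4 irisin arrays (points), with the mean and SD of each group at the right of its points. Only the Pprc1 panel shows groups that do not overlap, and the widest spreads are those of both Ppargc1a groups and of the Gabpa irisin arrays.

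Pprc1, the serum-responsive member of the coactivator family, was lower on every irisin array than on every control array. The control values were 0.18, 0.07, -0.05 and 0.23 for replicates 1 to 4, and the irisin values were -0.16, -0.16, -0.43 and -0.38. The groups did not overlap, as was also seen for 27.2% of all tested probes. The change was -0.39 (SE 0.0998, n = 4 and 4), or 0.764-fold with a 95% interval from 0.655 to 0.89, with an adjusted p of 0.0152 in limma. An exact two-sided permutation test gave p = 0.0286, the smallest value that 70 assignments of the arrays allow. Pprc1 was the single member with an adjusted p under 0.05, a mark that 24.5% of all tested probes passed, 2.96% higher and 21.6% lower, and its fold was short of 1.5. Tested probes of like signal, those in the same decile of mean signal, had a median change of 0.002 with quartiles of -0.12 and 0.12. Leaving out control replicate 4 gave -0.35 with an adjusted p of 0.0501, and leaving out irisin replicate 4 gave -0.36 with an adjusted p of 0.0524. Under the other scalings of the arrays, the change of Pprc1 was 0.19 when scaled to spike-in probes and 0.35 without any scaling, while all tested probes then had medians of 0.50 and 0.66. Quantile normalization (-0.38, adjusted p 0.0216) and cyclic loess (-0.39, adjusted p 0.0192), which can move probes against each other, gave changes close to the reported one, and normexp gave -0.29 with an adjusted p of 0.263.

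Ppargc1b, whose product drives oxidative and lipid synthesis genes in liver, had its 3 lowest values on irisin arrays. The control values were -3.72, -3.81, -3.92 and -3.51, and the irisin values were -4.22, -3.82, -4.13 and -4.04. The groups overlapped through irisin replicate 2, which lay above control replicate 3. The change was -0.31 (SE 0.116), with an adjusted p of 0.0777 and an exact permutation p of 0.0571. The processed signals were 28.2 to 43.7 units on control arrays and 42.8 to 51.8 units on irisin arrays, and tested probes of like signal had a median change of -0.15. Without irisin replicate 2 the change was -0.39 with an adjusted p of 0.0235. It was -0.14 after quantile normalization (adjusted p 0.451) and -0.10 after cyclic loess (adjusted p 0.57), 0.26 with spike-in scaling and 0.43 without scaling. After normexp on negative control spots it was -0.49 (adjusted p 0.000572), short of 1.5-fold, when all tested probes had a median of -0.17.

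Ppargc1a, the coactivator whose muscle form lies upstream of Fndc5, was detected in AML12 cells by both of its probes, at low signal. The brighter probe, A_51_P279038, had a processed signal of 15.6 to 28.4 units on control arrays and 27.4 to 38.3 units on irisin arrays, whereas the median negative control spot gave 0.988 to 1.01 units. Relative to the 75th percentile its control values were -4.28, -4.62, -5.10 and -4.13, and its irisin values were -4.38, -4.42, -4.86 and -4.95. The groups overlapped over most of their range. The change was -0.12 (SE 0.21), with a 95% interval from -0.59 to 0.35, an adjusted p of 0.752 and an exact permutation p of 0.657. A decrease of 1.5-fold lies at the edge of this interval. Leaving out control replicate 4 turned the change to 0.015, and values above zero were also found after quantile normalization (0.14) and cyclic loess (0.18), with scaling to spike-ins (0.46) and unscaled (0.62). After normexp on negative control spots the change was -0.45 with an adjusted p of 0.00352, short of 1.5-fold. All tested probes then had a median of -0.17. The sign differed between settings, so no direction is given.

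The dimmer Ppargc1a probe, A_55_P2011702, was well above background on 2 control and 4 irisin arrays. Its control values were -7.16, -6.66, -6.48 and -6.15, and its irisin values were -3.77, -6.45, -6.72 and -6.29. Irisin replicate 1 stood alone, with 58.3 units of processed signal against 7.62 to 10.9 units on the other irisin arrays, while the brighter probe gave 38.3 units on that array against 27.4 to 31.9 units. The change was 0.81 (SE 0.55) with an adjusted p of 0.35, and it was 0.13 with an adjusted p of 0.745 without that array. After normexp on negative control spots the change was -0.385 with an adjusted p of 0.0447. Since the probe passed the filter through the irisin group, where it is brighter, its change is given as a description.

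**Figure D2:**
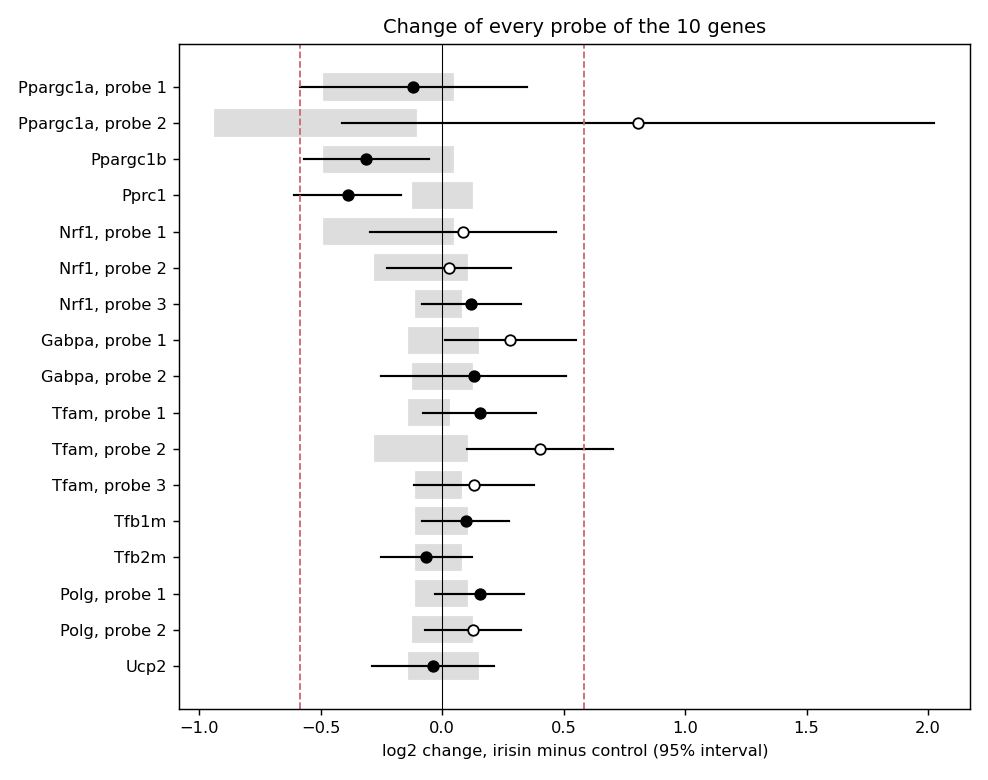
Log2 change of each of the 17 probes (horizontal axis, irisin minus control) with its 95% interval, where filled points are the brightest probe of a gene. Gray boxes span the quartiles of the changes of all tested probes in the same decile of mean signal, and dashed lines mark 1.5-fold. Pprc1, the first Gabpa probe and the second Tfam probe lie outside their boxes with intervals that leave out zero, and the second Ppargc1a probe has the widest interval.

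NRF1 and GABPα are the DNA-binding factors that the coactivators work with. Nrf1 was measured by 3 probes, and all gave small changes, of 0.12, 0.085 and 0.027, with adjusted p-values of 0.406, 0.785 and 0.905. The brightest gave 2.33, 2.10, 2.22 and 2.17 on control arrays and 2.34, 2.47, 2.17 and 2.33 on irisin arrays, so the groups overlapped, and its interval ran from -0.082 to 0.32. The 3 intervals of Nrf1 lay within 1.5-fold in either direction. After normexp on negative control spots, the brightest probe was at 0.25 (adjusted p 0.0316). The others were then at -0.31 (adjusted p 0.0376) and -0.27 (adjusted p 0.0353).

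Gabpa, which encodes the DNA-binding subunit of GABP, was measured by 2 probes. The brighter gave -0.14, -0.05, -0.35 and -0.18 on control arrays and 0.08, -0.52, 0.40 and -0.17 on irisin arrays. Irisin replicates 3 and 2 were the highest and the lowest of all 8 arrays. The change was 0.13 (SE 0.171) with an adjusted p of 0.659, and it turned to -0.021 when irisin replicate 3 was left out. The other probe gave -1.66, -1.72, -1.86 and -2.03 on control arrays and -1.35, -1.83, -1.47 and -1.50 on irisin arrays. There, 3 irisin arrays lay above all control arrays, and irisin replicate 2 lay among them. Its change was 0.28 (SE 0.122) with an adjusted p of 0.131 and an exact permutation p of 0.0857.

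The promoters of these genes are known for sites of GABP and NRF1. RefSeq promoter windows of GRCm38.p6, from 250 bases before to 50 bases after a gene's start, matched 9 of the 10 members with 10 windows, Nrf1 having 2. The GABP core CCGGAAG, searched on both strands, was in 3 of the 10 windows and in 8.86% of all 32851 windows. It lay 47 bases before the start of Tfam, 38 before that of Polg and 93 before that of Gabpa. The 150 bases before these starts are shown, on the strand of the gene, because probes of Tfam and Gabpa had like array patterns and Polg shares the core. Capitals mark the core or its reverse complement.
Tfam (chr10:71238045-71238194, minus strand): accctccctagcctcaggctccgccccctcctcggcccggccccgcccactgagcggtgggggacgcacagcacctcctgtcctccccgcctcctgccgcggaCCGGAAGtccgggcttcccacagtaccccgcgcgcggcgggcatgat
Polg (chr7:79466274-79466423, minus strand): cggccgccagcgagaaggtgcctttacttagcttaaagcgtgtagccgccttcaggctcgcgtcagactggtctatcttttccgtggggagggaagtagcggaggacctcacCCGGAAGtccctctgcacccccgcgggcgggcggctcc
Gabpa (chr16:84834974-84835123, plus strand): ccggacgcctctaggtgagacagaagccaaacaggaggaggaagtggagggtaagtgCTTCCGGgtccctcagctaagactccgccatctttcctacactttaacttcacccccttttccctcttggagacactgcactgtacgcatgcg
The core was in no window of Nrf1 or Tfb1m, whose changes also lay above zero, at 0.12 and 0.097. A link between the core and the changes was not tested. The 150 bases before the start of Pprc1, the member with the lowest change, hold no such core.
Pprc1 (chr19:46056389-46056538, plus strand): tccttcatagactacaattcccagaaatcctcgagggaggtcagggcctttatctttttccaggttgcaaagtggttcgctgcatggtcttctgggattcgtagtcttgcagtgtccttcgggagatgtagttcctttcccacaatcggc
The NRF1 core CGCATGCG was in 2 member windows, 8 bases before the start of Gabpa, as the last letters of its printed stretch, and 12 bases after the start of Tfb2m, and in 1.87% of all windows. The longer NRF1 consensus, which can overlap that core, was in 0 of the 10 windows and in 1.27% of all windows, and the ERR site TCAAGGTCA was in 0 of the 10 and in 0.423% of all. A match is a description of letters and no evidence of binding.

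Tfam, the packaging and transcription factor of mitochondrial DNA, had 3 of 4 irisin arrays above all control arrays by each of its 3 probes. Its brightest probe, A_51_P493720, gave 2.75, 2.77, 2.84 and 2.68 on control arrays and 2.94, 2.63, 3.05 and 3.03 on irisin arrays. Irisin replicates 1, 3 and 4 lay above all control arrays, whereas irisin replicate 2 was the lowest of all 8. The change was 0.15 (SE 0.104) with a 95% interval from -0.077 to 0.39 and an adjusted p of 0.344. The third probe, A_55_P2026445, gave 1.91, 1.88, 1.91 and 1.76 on control arrays and 2.01, 1.69, 2.19 and 2.10 on irisin arrays, a change of 0.13 (SE 0.111) with an adjusted p of 0.46, and irisin replicate 2 was again the lowest.

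The dim Tfam probe, A_52_P351785, gave the largest change of the Tfam probes. Its control values were -2.84, -2.73, -2.90 and -3.20, and its irisin values were -2.45, -2.86, -2.33 and -2.43. Here too irisin replicate 2 was the lowest irisin array, and it lay among the controls. The change was 0.40 (SE 0.136), or 1.32-fold with an interval from 1.07 to 1.63, with an adjusted p of 0.0533 and an exact permutation p of 0.0857. It was larger than the change of the brightest probe by 0.25 and of the third probe by 0.27. Both differences had an exact permutation p of 0.0286 and an adjusted p of 0.129 over the 9 pairs of probes of the same member. The same probe had an adjusted p of 0.038 after quantile normalization and 0.0321 after cyclic loess, with changes of 0.47 and 0.51, both under 1.5-fold. The adjusted p was 0.125 with the methods' test, 0.0895 with the replicate number as a block and 0.381 after normexp. After normexp on negative control spots the change was -0.018 with an adjusted p of 0.906.

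Irisin replicate 2 was the lowest irisin array for 6 of the 17 member probes (35.3%) and for 23.4% of all tested probes, and the highest for 7 member probes (41.2%) and for 47.4% of all tested probes. The 6 include all 5 probes of Tfam and Gabpa, a pair of genes picked out here for this dip. Its 75th percentile was 682 units, the lowest of the irisin group. Without it the Tfam changes were 0.25 (adjusted p 0.0337), 0.52 (0.00775) and 0.23 (0.0544), in the order in which the probes are given above with the dim probe second, and the Gabpa changes were 0.29 (0.146) for the brighter and 0.38 (0.0215) for the other probe. None of these reached 1.5-fold. This array was singled out after its values were seen, and the labels give nothing that sets this array apart.

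**Figure D3:**
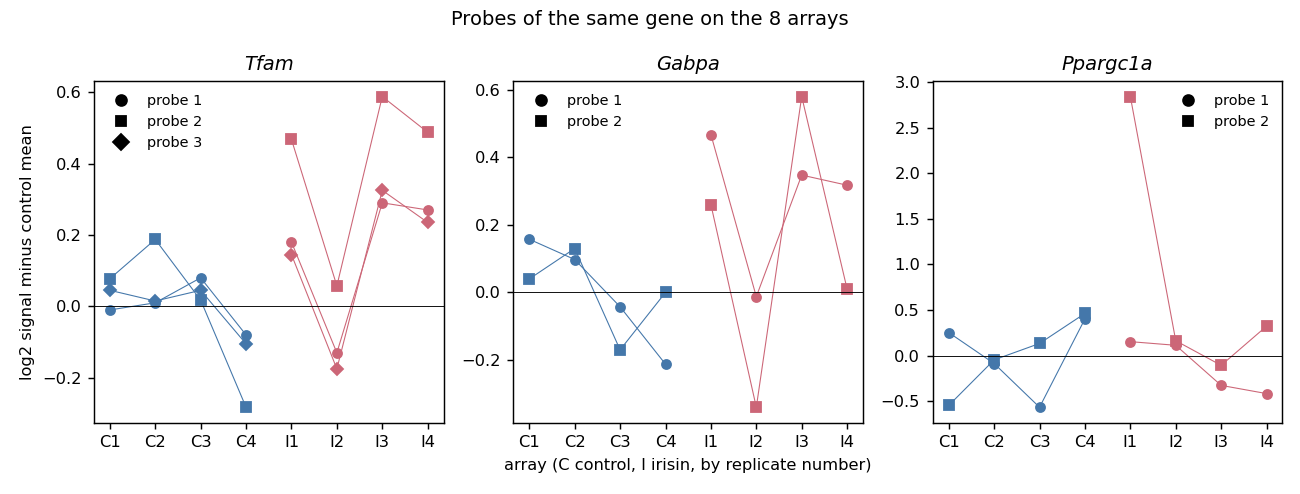
Log2 signal minus the mean of the control arrays (vertical axis, not the same scale in the panels) on each of the 8 arrays for the probes of Tfam, Gabpa and Ppargc1a, where C1 to C4 are control and I1 to I4 irisin replicates. Lines join arrays of 1 group as a guide to the eye and imply no order. Irisin replicate 2 dips in every probe of Tfam and Gabpa, and irisin replicate 1 stands alone for the second Ppargc1a probe.

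Polg, the catalytic subunit of the mitochondrial DNA polymerase, gave 0.80, 0.81, 0.89 and 0.79 on control arrays and 0.88, 1.14, 0.95 and 0.93 on irisin arrays. Irisin replicate 1 overlapped with control replicate 3, and the other irisin arrays lay above all controls. The change was 0.15 (SE 0.0827) with an adjusted p of 0.224 and an exact permutation p of 0.0571. Its second probe changed by 0.13 with an adjusted p of 0.367. Irisin replicate 2 was the highest array for both Polg probes, unlike for Tfam and Gabpa.

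Tfb1m and Tfb2m encode related proteins, of which TFB2M opens the mitochondrial promoter with the polymerase and TFB1M methylates mitochondrial ribosomal RNA. Tfb1m gave 0.29, 0.33, 0.51 and 0.37 on control arrays and 0.41, 0.54, 0.50 and 0.43 on irisin arrays, a change of 0.097 (SE 0.0814) with an adjusted p of 0.46. Tfb2m gave 2.11, 2.12, 2.11 and 2.19 on control arrays and 2.01, 1.93, 2.20 and 2.13 on irisin arrays, a change of -0.064 (SE 0.084) with an adjusted p of 0.656. In both genes the groups overlapped, and the intervals, from -0.084 to 0.28 and from -0.25 to 0.12, lay within 1.5-fold.

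Ucp2, the uncoupling protein relative found in many tissues, gave -1.42, -1.29, -1.03 and -1.28 on control arrays and -1.52, -1.13, -1.31 and -1.21 on irisin arrays. The groups covered nearly the same range. The change was -0.038 (SE 0.113), with an interval from -0.29 to 0.21 and an adjusted p of 0.859, and it turned to 0.037 without control replicate 3 and to 0.038 without irisin replicate 1.

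Partners and regulators of the coactivators, nuclear receptors, acetylation enzymes and corepressors among them, were tested for 20 of 22 genes. Of these 0 rose and 1 fell, against 0.531% and 10.2% of all tested genes, and their median change was -0.055. The gene that fell was Esrrb, an orphan receptor of the ERR family better known from stem cells. Its control values were -4.50, -4.65, -4.39 and -4.64, and its irisin values were -5.45, -5.10, -5.67 and -5.29. The groups did not overlap, and the change was -0.83 (SE 0.124) with an adjusted p of 0.000737. Tested probes of like signal had a median change of -0.33, and Esrrb was not called after quantile normalization (-0.51) or cyclic loess (-0.47), with scaling to spike-ins (-0.26) or unscaled (-0.093), nor after normexp background correction, where its change was 0.32. Esrra, the receptor through which PGC-1α mainly acts on oxidative genes, was -0.20 (SE 0.085, adjusted p 0.119), and Esrrg was above background on no array. A dimmer probe of the nuclear receptor gene Rxra was at -0.50 (adjusted p 0.0036 in limma), short of 1.5-fold. Tested probes of like signal had a median change of -0.15, and the brightest Rxra probe was at -0.22 (adjusted p 0.15). The highest changes in the list were Fbxw7, a ubiquitin ligase subunit that targets PGC-1α, at 0.29 (adjusted p 0.16) and Hcfc1, a host cell factor that binds the coactivators, at 0.20 (adjusted p 0.279), whose dimmer second probe was at -0.30 (adjusted p 0.126), and the second lowest was the GABP subunit Gabpb2 at -0.29 (adjusted p 0.124).

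Other genes of mitochondrial DNA upkeep and transcription were tested for all 22 on the array, and 0 rose or fell by the rule in limma. At an unadjusted p under 0.05 there were 4 higher and 1 lower, the methods' test called 0 of them, and their median change was -0.088. Unadjusted p-values under 0.05 were found for 29.5% of all tested genes. Short of 1.5-fold, 3 had an adjusted p under 0.05 by their brightest probe, 2 higher and 1 lower, against 20.6% of all tested genes, 2.65% higher and 17.9% lower. The helicase and nuclease Dna2 gave -1.40, -1.22, -1.31 and -1.25 on control arrays and -0.77, -1.04, -0.93 and -0.95 on irisin arrays. The groups did not overlap, and the change was 0.37 (SE 0.086) with an adjusted p of 0.00855. Its dimmer second probe changed by 0.19 with an adjusted p of 0.637. Rnaseh1, which removes RNA primers from mitochondrial and nuclear DNA, was at 0.27 (adjusted p 0.0332), and Slirp, which with LRPPRC stabilizes mitochondrial messages, was at -0.31 (adjusted p 0.0298). With 1 array left out, the adjusted p ranged up to 0.0299 for Dna2, and it passed 0.05 for Rnaseh1 and Slirp. Mterf3, a repressor of mitochondrial transcription, was 0.34 (adjusted p 0.0874), and Mterf2, of the same family, was -0.27 (adjusted p 0.251). The brightest probe of Ssbp1 was at -0.076 (adjusted p 0.581). Its dimmer probes were at 0.28 (adjusted p 0.0167), 0.32 (adjusted p 0.0446) and 0.029 (adjusted p 0.913). A dimmer probe of Mterf1b was at 0.52 (adjusted p 0.0329), and its brightest at 0.018 (adjusted p 0.948).

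Genes known as targets of the program were tested for 24 of 25, and 0 rose and 1 fell, against 0.531% and 10.2% of all tested genes, with a median change of -0.14. The gene that fell was G6pc, which releases glucose from liver cells in fasting and is induced by PGC-1α. It gave -5.73, -5.51, -5.31 and -5.47 on control arrays and -6.63, -6.47, -5.93 and -5.90 on irisin arrays. The groups did not overlap, and the change was -0.73 (SE 0.171) with an adjusted p of 0.00953, while tested probes of like signal had a median change of -0.51. G6pc was not called by the methods' test (adjusted p 0.055), nor after quantile normalization (-0.27), cyclic loess (-0.26) or normexp (0.42), with scaling to spike-ins (-0.15) or unscaled (0.01). Short of 1.5-fold, adjusted p-values under 0.05 were found by the brightest probe for the ATP synthase β subunit Atp5b (-0.39, adjusted p 0.00764), the cytochrome c oxidase subunit Cox5b (-0.34, adjusted p 0.0148) and Cpox of heme synthesis (-0.26, adjusted p 0.0347), and 17.9% of all tested genes were lower at this threshold. Dimmer probes of Alas1 (-0.38, adjusted p 0.00832) and Mfn2 (-0.31, adjusted p 0.0222) also passed. The brightest probes of Alas1 and Mfn2 were at -0.038 (adjusted p 0.845) and -0.15 (adjusted p 0.186). The change of Cycs, which encodes cytochrome c, was -0.18 (adjusted p 0.16). Atp5b and Cox5b lie in the brightest decile of tested probes, whose median change was -0.20. After quantile normalization Atp5b was at -0.022 and Cox5b at -0.11 (adjusted p 0.252 in limma). With 1 array left out, the adjusted p of Cpox ranged up to 0.0993, without control replicate 3. The highest changes were Idh3a of the citric acid cycle at 0.22 (adjusted p 0.219) and the oxidase assembly factor Surf1 at 0.067 (adjusted p 0.627), and the second lowest was the copper chaperone Cox17 at -0.62 (adjusted p 0.198), whose control values spread from -4.71 to -2.89.

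**Figure D4:**
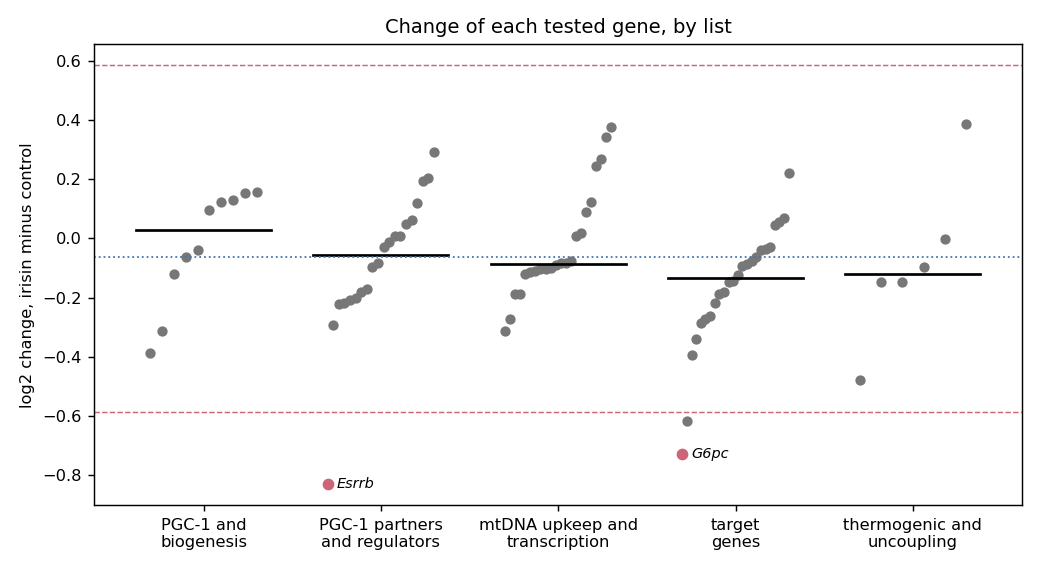
Log2 change of each tested gene (vertical axis, irisin minus control) by list, with the median of the list as a bar, the median of all tested genes as a dotted line and 1.5-fold as dashed lines. Red points are the called genes, Esrrb and G6pc, and all other genes are gray. Apart from Cox17, the uncalled genes lie within 1.5-fold.

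Of 13 thermogenic and uncoupling genes, 7 were above background on no array, namely Ucp1, Dio2, Prdm16, Elovl3, Tmem26, Cox8b and Tbx1. The other 6, among them Cidea, Cox7a1 and Tnfrsf9, were well above background on all 8 arrays by at least 1 probe. The 6 tested genes had a median change of -0.12, and 0 were called in limma, against 10.7% of all tested genes. At an unadjusted p under 0.05 there were 1 higher and 1 lower, against 29.5% of all tested genes, and the methods' test called 0. Slc25a30, a mitochondrial carrier related to the uncoupling proteins, gave -1.04, -0.94, -1.27 and -1.01 on control arrays and -0.56, -0.81, -0.76 and -0.57 on irisin arrays. The groups did not overlap, and the change was 0.39 (SE 0.101) with an adjusted p of 0.0166, and 0.0572 without irisin replicate 4. Cidea, a lipid droplet protein of brown fat and fatty liver, was at -0.48 (adjusted p 0.00436), while tested probes of like signal had a median change of -0.33, and it was at -0.036 after quantile normalization. Ucp3 was at -0.15 (adjusted p 0.449) by its brightest probe, while its other probe was above background on no array, so its detection rests on a single probe. Slc25a14, another carrier of the family, was at -0.003 (adjusted p 0.987).

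The 3 genes whose centered values over the 8 arrays lay nearest to those of Pprc1, among 14254 other tested genes, were Mical2, Siglech and Tdgf1. Their root mean square distances from Pprc1 were 0.0466, 0.0527 and 0.053 on the log2 scale, and their changes were -0.43, -0.41 and -0.42.

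The sign of Ppargc1a, Ppargc1b, Pprc1, Tfb2m and Ucp2 turned under spike-in scaling and without scaling, while Nrf1, Gabpa, Tfam, Tfb1m and Polg stayed above zero under both, and the irisin arrays had the higher 75th percentiles. Under scaling to 8 spike-in probes, 12 of the 17 member probes were called. Of all 24091 tested probes, 7804 were then called higher and 362 lower, with a median change of 0.50. Without scaling, 15 member probes were called, against 14920 of all tested probes called higher and 162 lower, with a median change of 0.66. Both of these settings shift every probe of an array alike, so they leave the differences between genes as they were.

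**Figure D5:**
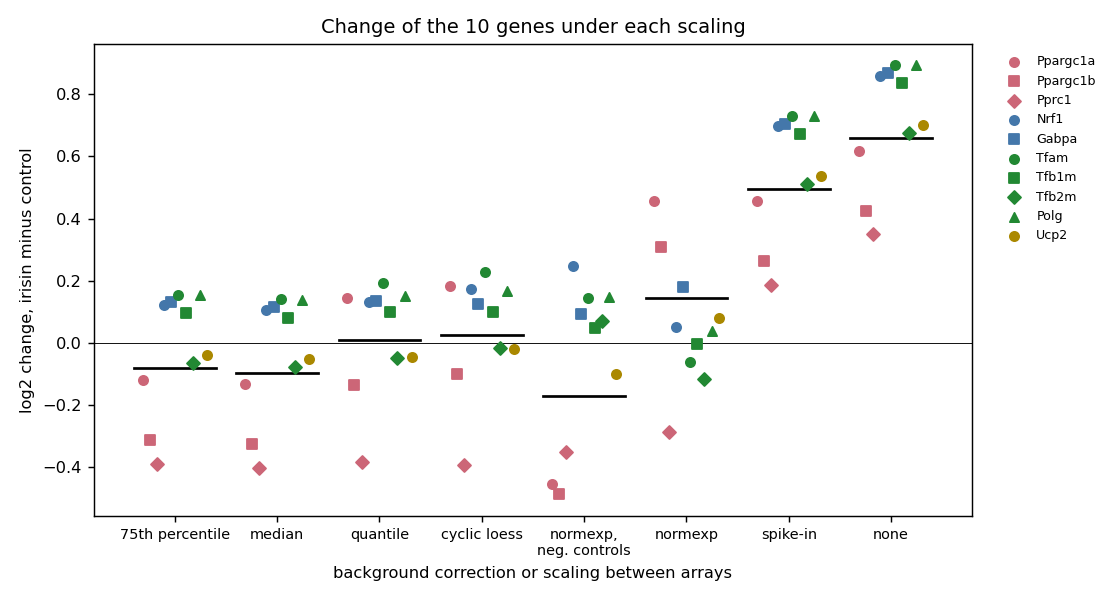
Log2 change of the 10 genes (vertical axis, irisin minus control) under each background correction or scaling between arrays (horizontal axis), with the median of all tested probes as a bar. Red marks are coactivators, blue the nuclear factors, green the mitochondrial DNA factors and yellow Ucp2. Under spike-in scaling and without scaling all 10 genes lie above zero, and the spacing of the genes is the same by construction for the 75th percentile, median, spike-in and no scaling.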

How the data were processed

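RNA of 8 AML12 samples, 4 control and 4 treated with irisin, was labeled with Cy3 and hybridized to Agilent arrays, and groups, dose and time were taken from the labels. The authors deposited Feature Extraction 12.0.3.1 output, in which the signal intensity is linear, background-subtracted and not normalized between arrays, and a value table of intensity that deviated from it by at most 0.0005%.

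Control spots and spots marked as non-uniform or population outliers, at most 0.463% per array, were left out, and spots of a probe were averaged. The log2 intensity was taken relative to the array's 75th percentile. Of 39429 probes, 28663 (72.7%) were matched by accession to genes in the RefSeq table of GRCm38.p6. Probe positions are not printed, since those in the files are on mm9. A gene was counted by its brightest probe. Limma 3.58.1 (lmFit, eBayes) in R 4.3.3 tested probes that every array of the control or of the irisin group had well above background, with Benjamini-Hochberg adjustment over all of them. Single probes were also tested by exact permutation (two-sided, 70 assignments). On simulated arrays with 200 changed probes among 24021, at a log2 change of 1, 179 were recovered and 3 unchanged probes were called.

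The members and lists were chosen with earlier results of these data known, and the lists were written from general knowledge. Named were all members, called list genes, the 2 highest and 2 lowest changes of each list, and the 3 genes nearest to Pprc1. Esrra, Esrrg, Rxra, Rnaseh1, Ssbp1, Mterf1b, Atp5b, Cox5b, Cpox, Alas1, Mfn2, Cycs, Cox7a1, Tnfrsf9, the marker genes and the thermogenic genes above background on no array were named after their values were seen. Alternatives were normexp (offset 50), quantile, median, cyclic loess, spike-in and no scaling, the value table, marked spots kept, no or a stricter filter on dim probes, eBayes with a trend, the methods' analysis of variance, the replicate number as a block, other thresholds, the mean over a gene's probes and each array left out. Normexp with negative control spots was added after seeing the data. Python 3.11.15, pandas 2.3.3 and matplotlib 3.10.9 were used. The number of arrays limits the precision.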

Additional observations from a re-analysis of the deposited data

Results flagged for a closer look

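In 34 groups of 4 arrays, 1 for each member probe and treatment, 2 had an array far from the other 3 by Dixon's criterion, which chance alone meets in about 1 of 20 groups. The Ppargc1a probe A_55_P2011702 gave -3.77 on irisin replicate 1 and -6.72 to -6.29 on the other irisin arrays, and without that array its change was 0.13 with an adjusted p of 0.745 in limma. Tfb2m gave 2.19 on control replicate 4 and 2.11 to 2.12 on the other control arrays, and without that array its change was -0.04 with an adjusted p of 0.819 in limma.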

How the results depend on the processing

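The number of member probes called was 0 in the reported fit and in all settings but 3, namely 12 when scaled to spike-ins, 15 unscaled and 1, Pprc1, with the adjusted p alone. Over all probes, 172 were called higher and 2814 lower. The higher and lower calls were 0 and 0 after normexp, 55 and 3835 after normexp on negative control spots, 670 and 1021 after quantile normalization, 699 and 926 after cyclic loess, 7804 and 362 when scaled to spike-ins, 14920 and 162 when unscaled, 184 and 12750 with no filter, 108 and 2592 with the methods' test, 712 and 5195 with the adjusted p alone, and 23 and 777 with a 2-fold threshold. With 1 array left out they were 103 (without irisin replicate 3) to 353 (without irisin replicate 2) and 2662 to 3087. In the normexp fit the estimated background mean was -306 and -395 on irisin replicates 2 and 4 and between -10.7 and -8.06 on the others.

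Of the coactivators, Ppargc1a turned to 0.46 with normexp, 0.14 with quantile normalization, 0.18 with cyclic loess, 0.46 when scaled to spike-ins, 0.62 unscaled and 0.34 as the mean over its probes. Ppargc1b turned to 0.31 with normexp, 0.26 when scaled to spike-ins and 0.43 unscaled, and Pprc1 to 0.19 and 0.35 with the same pair. Tfam turned to -0.06 and Tfb1m to -0.003 with normexp, Tfb2m to 0.069 with normexp on negative control spots, 0.51 when scaled to spike-ins and 0.67 unscaled, and Ucp2 to 0.08, 0.54 and 0.70 with normexp, spike-in and no scaling. With spike-in and no scaling, Nrf1 was called at 0.70 and 0.86, Gabpa at 0.71 and 0.87, Tfam at 0.73 and 0.89, Tfb1m at 0.67 and 0.83, and Polg at 0.73 and 0.89. With 1 array left out, changes by the brightest probe ranged from -0.31 to 0.015 for Ppargc1a, -0.021 to 0.29 for Gabpa and -0.094 to 0.038 for Ucp2. No other member changed sign by its brightest probe. The dimmer Nrf1 probes turned to -0.061 and -0.057 without control replicate 4, and both to -0.024 without irisin replicate 1. The cause of these shifts beyond the scaling itself was not tested.

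Among the partners, the genes called higher were 6 with spike-in and 12 with no scaling, and those called lower were 0 with these, normexp, cyclic loess and quantile normalization, and 2 with no filter. Of the other mitochondrial DNA genes 7 and 18 were called higher with spike-in and no scaling. Of the targets 4 and 14 were called higher with these, and 0 were called lower with them, normexp, quantile normalization, cyclic loess and the methods' test, 2 with no filter, 2 with normexp on negative control spots, and 1 to 2 with 1 array left out, the 2 without control replicate 2. Of the thermogenic genes 1 and 5 were called higher with spike-in and no scaling, 1 lower with normexp on negative control spots and 6 lower with no filter. Over all 24091 tested probes, 7804 and 14920 were called higher with spike-in and no scaling. With no filter, 12750 of the 39429 probes on the array were called lower. Of the genes outside the members with an adjusted p under 0.05, Esrrb, G6pc and Cidea turned to 0.32, 0.42 and 0.47 with normexp. With spike-in scaling Slirp, Cidea, Atp5b, Cox5b and Cpox were at 0.26, 0.10, 0.18, 0.24 and 0.31, and with no scaling these were at 0.43, 0.26, 0.35, 0.40 and 0.47 and G6pc at 0.01. Replicates of the same number correlated between -0.35 and 0.17 in their deviations from the group means over 4 pairs, so the numbers were not taken to pair the samples, and the fit with the replicate number as a block called 173 probes higher, 2830 lower and 0 member probes. Slide and treatment cannot be told apart, and dim probes such as those of Ppargc1a have the widest intervals.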
